A study of Mus musculus with 12 samples.

Results

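Adrenomedullin and the genes of its receptors were followed in lung lymphatic endothelial cells (LECs) from mice breathing cigarette smoke (CS) or room air (RA). The members were chosen by name: the peptide gene Adm, the receptor gene Calcrl, the receptor activity-modifying protein genes Ramp1, Ramp2 and Ramp3, and the atypical receptor gene Ackr3, which are 6 of the 52636 gene identifiers in the count files. All 6 were matched to an identifier and all 6 passed the filter on low counts. The 12 libraries were made from LECs of Prox1-EGFP reporter mice, in which the lymphatic endothelium carries GFP, and the reporter was shared by every group. Mice breathed CS in a whole-body system or RA, either for the 8 weeks of the acute time point or for the longer chronic time point whose samples the labels call aged. There were 2 acute RA libraries (F, M), 2 acute CS libraries (F, M), 3 chronic RA libraries (F, M1, M2) and 5 chronic CS libraries (F, M1 to M4), with F and M for the sex of the mice and controls matched for age. Per the study's methods, cells of several mice of a condition were pooled for the 8-week CS time point and not for the chronic ones, and whether the 8-week RA libraries were pooled in the same way is not given in the sources used here. Pooling therefore cannot be told apart from the time point, nor, if RA was not pooled, from smoke in the acute comparison. The cells were sorted as live, GFP+ and CD31+ cells without EpCAM or hematopoietic lineage markers.

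Adrenomedullin is a peptide of the calcitonin family that vascular endothelium both makes and senses. The calcitonin receptor-like receptor encoded by Calcrl reaches the cell surface and acquires its ligand preference only with a RAMP partner: with RAMP2 or RAMP3 it is an adrenomedullin receptor, and with RAMP1 it binds calcitonin gene-related peptide. Signalling through the receptor raises cAMP and tightens endothelial junctions, and mouse embryos lacking Adm, Calcrl or Ramp2 have defective lymphatic vessels and edema. ACKR3 takes up adrenomedullin and the chemokine CXCL12 without G protein signalling and so limits the amount of either that is left outside the cell.

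On the GRCm38 build, Adm (ENSMUSG00000030790) lies at chr7:110627661-110629820 on the plus strand and Calcrl (ENSMUSG00000059588) at chr2:84330626-84425411 on the minus strand. Ramp1 (ENSMUSG00000034353) lies at chr1:91179822-91225196, Ramp2 (ENSMUSG00000001240) at chr11:101246028-101259546, Ramp3 (ENSMUSG00000041046) at chr11:6658521-6677475 and Ackr3 (ENSMUSG00000044337) at chr1:90203980-90216751, all on the plus strand. Ramp2 shares bases with Vps25 on the same strand (8 to 46 counts), Adm with the antisense Gm28863 (0 to 14 counts, at most 0.250% of those of Adm) and Ramp3 with the antisense Gm11978 (0 counts in all libraries), and whether strand was used in counting is not given in the sources used here. The upstream promoter is printed for the 3 genes that passed the test of acute CS (Ramp1, Ramp3 and Ackr3) and for Adm, which did not, so that they can be set side by side. The bases are those upstream of the gene start, 5′ to 3′ on the gene's strand, from RefSeq (GRCm38.p6), at chr7:110627407-110627656 for Adm, chr1:91179572-91179821 for Ramp1, chr11:6658283-6658505 for Ramp3 and chr1:90203730-90203979 for Ackr3. Capitals mark GCGTG on either strand, the shared core of hypoxia and aryl hydrocarbon receptor response elements, and the TATA box letters TATAAA.
Adm: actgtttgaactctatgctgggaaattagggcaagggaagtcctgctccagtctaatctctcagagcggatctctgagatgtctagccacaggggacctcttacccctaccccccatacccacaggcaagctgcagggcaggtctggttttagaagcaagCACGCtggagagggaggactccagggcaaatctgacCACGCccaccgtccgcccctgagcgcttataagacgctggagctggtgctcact
Ramp1: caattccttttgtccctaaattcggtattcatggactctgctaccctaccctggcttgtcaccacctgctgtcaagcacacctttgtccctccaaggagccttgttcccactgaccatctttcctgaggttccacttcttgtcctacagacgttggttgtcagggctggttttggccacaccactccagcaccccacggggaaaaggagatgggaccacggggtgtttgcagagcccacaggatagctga
Ramp3: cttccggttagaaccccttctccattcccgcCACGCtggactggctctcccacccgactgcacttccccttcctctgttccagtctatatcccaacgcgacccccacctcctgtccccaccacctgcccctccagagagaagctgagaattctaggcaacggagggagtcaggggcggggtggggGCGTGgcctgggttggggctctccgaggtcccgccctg
Ackr3: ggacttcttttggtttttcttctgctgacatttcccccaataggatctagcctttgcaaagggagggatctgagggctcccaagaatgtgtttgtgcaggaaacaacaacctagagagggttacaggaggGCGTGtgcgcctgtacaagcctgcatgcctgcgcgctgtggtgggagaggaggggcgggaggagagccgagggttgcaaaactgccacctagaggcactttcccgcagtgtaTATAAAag
In the RefSeq windows of 300 bases around the starts of 5 members, GCGTG was found 2 times in Adm, 2 times in Ramp3, 1 time in Ackr3, 1 time in Calcrl and not in Ramp1. Of all 32851 promoter windows of this length, 32.4% held GCGTG on at least 1 strand and 13.6% held TATAAA, which among these 5 windows was found in Ackr3 only. On either strand, ACGTG (19.6% of all windows) and TGANTCA (7.81% of all windows) were found in none of the 5, and TGACG (20.8% of all windows) was found 1 time in Ramp1; matches of different motifs were allowed to share letters. Ramp2 was not matched in this table.

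The deepest library, acute RA F, held 56998590 counts and the shallowest, chronic CS F, 18821438. The lymphatic markers Prox1, Flt4, Mmrn1 and Reln were abundant in all 12 libraries, while Ccl21a did not exceed 1.06 CPM. The 2 acute CS libraries stood apart in their markers: the summed level of the 7 lymphatic markers was 5904 to 9073 CPM against 13513 to 15243 CPM in acute RA, with 2 of 7 (Prox1 and Flt4) past the test as lower. Mmrn1 made up the largest part of that sum in acute RA, and Lyve1, the only one of the 7 with a positive difference, was at 443 to 536 CPM in acute RA and 568.2 to 986 CPM in acute CS (log2 fold change 0.67 ± 0.30, SE, edgeR adjusted p = 0.307). The acute CS libraries also had more genes with a count (26328 in F and 24660 in M, against 23089 and 22369 in acute RA) and a higher mitochondrial share (0.749% and 0.458% against 0.396% and 0.322%), and the part of these in the acute results was not tested. Markers of other cells were higher in acute CS, with 8 of 13 blood endothelial, 5 of 8 leukocyte and 4 of 8 mesenchymal markers past the edgeR test and none of these lower, where 2.75% of all 21440 tested genes passed as higher and 3.47% in either direction. The summed blood endothelial level was 6811 to 7213 CPM in acute CS against 2674 to 3552 CPM in acute RA, of which Plvap alone, present in every group, made up most in acute RA. Over the 13 blood endothelial markers the median log2 fold change was 2.69, against 0.04 over all tested genes. All 13 differences were positive, from 0.14 for Plvap to 5.07 for Slc6a2. The leukocyte sum was 952 to 1505 CPM against 83.7 to 103 CPM, the mesenchymal sum 425 to 453 CPM against 53.8 to 128 CPM, and the alveolar macrophage sum 1675 to 1696 CPM against 42.6 to 100.3 CPM with 0 of 6 past the test and 5 of 6 at an edgeR unadjusted p under 0.05 (15.7% of all tested genes). Epithelial markers, 0 of 6 past the test, summed to 7577 CPM in acute CS F and 189 CPM in acute CS M, on either side of the 879 to 1717 CPM of acute RA. Of the pan-endothelial markers 1 of 5 (Cdh5) was higher, and 0 of 2 erythroid markers passed. Among all these lists, the macrophage markers Marco, Siglecf and Ear1 and the epithelial marker Epcam were at 0 in 1 to 3 libraries. Blood endothelium is itself known to express Calcrl, Ramp2 and Ackr3, and the part of blood endothelial, leukocyte, macrophage and mesenchymal cells in the acute results below, that of Ramp1 included, was not tested. In bulk RNA, fewer cells of a type and less RNA per cell cannot be told apart.

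In acute CS the transcripts of both minor receptor partners and of the scavenging receptor were higher, and no change of the peptide gene was detected. Ramp1 rose 11.4-fold, Ramp3 rose 9.15-fold and Ackr3 rose 4.22-fold in acute CS against acute RA. These 3 of 6 members passed the edgeR test, all 3 higher, where 2.75% of 21440 tested genes passed as higher and 3.47% passed in either direction. Calcrl and Ramp2 were 3.02-fold and 1.72-fold higher with adjusted p-values just above 0.05. The median log2 fold change over the 6 members was 1.84, against 0.04 over all tested genes.

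Adm, the ligand, was measured in CPM (counts relative to library size after TMM scaling) at 90.1 in F and 106 in M of acute RA, and at 35.8 in F and 108 in M of acute CS. The acute CS libraries lay on either side of acute RA, so the groups overlapped and the direction of the mean came from acute CS F alone. The log2 fold change was -0.44 ± 0.50 (SE, adjusted p = 0.791, edgeR), and without acute CS F it was 0.15.

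Calcrl, the signalling receptor subunit, stood at 239.5 and 232 CPM in F and M of acute RA and at 867 and 555 CPM in F and M of acute CS. Both acute CS libraries were above both acute RA libraries. The log2 fold change of Calcrl was 1.59 ± 0.42 (SE) with an adjusted p of 0.0668 in edgeR's test, and it passed with DESeq2 (adjusted p = 0.00234) and without the filter on low counts (adjusted p = 0.0283). In the other 8 alternatives it did not pass, with adjusted p-values up to 0.398, that without acute CS F.

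Ramp2, the partner that makes the main adrenomedullin receptor of endothelium, was at 597 and 710.5 CPM in F and M of acute RA and at 1205 and 1046 CPM in F and M of acute CS. Again the groups did not overlap, and the SD of either group (80.0 and 112 CPM) was small beside the difference of their means, 654 and 1125 CPM. The log2 fold change was 0.78 ± 0.19 (SE, edgeR adjusted p = 0.0530), past the threshold with DESeq2 (adjusted p = 0.00360) and without the filter on low counts (adjusted p = 0.0460). In the other 8 alternatives it did not pass, with adjusted p-values up to 0.360, that without acute RA F.

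Ramp1, the partner for calcitonin gene-related peptide, was at 1.01 and 2.72 CPM in F and M of acute RA, from 60 and 144 counts, and at 24.6 and 18.2 CPM in F and M of acute CS, from 1251 and 840 counts. It was the member with the largest fold change, at a log2 value of 3.52 ± 0.84 (SE, edgeR adjusted p = 0.0452). The call sat close to the threshold and was lost on leaving out any 1 of the 4 acute libraries, with adjusted p-values from 0.0665 to 0.322 and log2 fold changes from 2.97 to 4.36, and with sex as a covariate (adjusted p = 0.0609).

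Ramp3, the second partner that makes an adrenomedullin receptor, was at 1.57 and 2.25 CPM in F and M of acute RA and at 17.8 and 17.2 CPM in F and M of acute CS. Both acute CS libraries were above both acute RA libraries, and the 2 acute CS libraries differed by less than 1 CPM. Ramp3 had the smallest p-value of the members, with a log2 fold change of 3.19 ± 0.47 (SE, edgeR adjusted p = 0.00670). The call was lost without acute RA F (adjusted p = 0.0847) or acute RA M (adjusted p = 0.0860), where the log2 fold change was 2.96 and 3.44.

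Ackr3, the scavenging receptor, was even in acute RA, at 82.9 CPM in F and 83.8 CPM in M, and rose to 225 CPM in F and 478 CPM in M of acute CS. The 2 acute CS libraries differed from each other by more than the acute RA libraries did, yet both were above every library of the other 3 groups. The log2 fold change was 2.08 ± 0.40 (SE, edgeR adjusted p = 0.0187). Without acute RA F, acute RA M or acute CS M it was no longer called (adjusted p = 0.153, 0.172 and 0.0762), and it was 1.44 on the log2 scale without acute CS M.

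**Figure D1:**
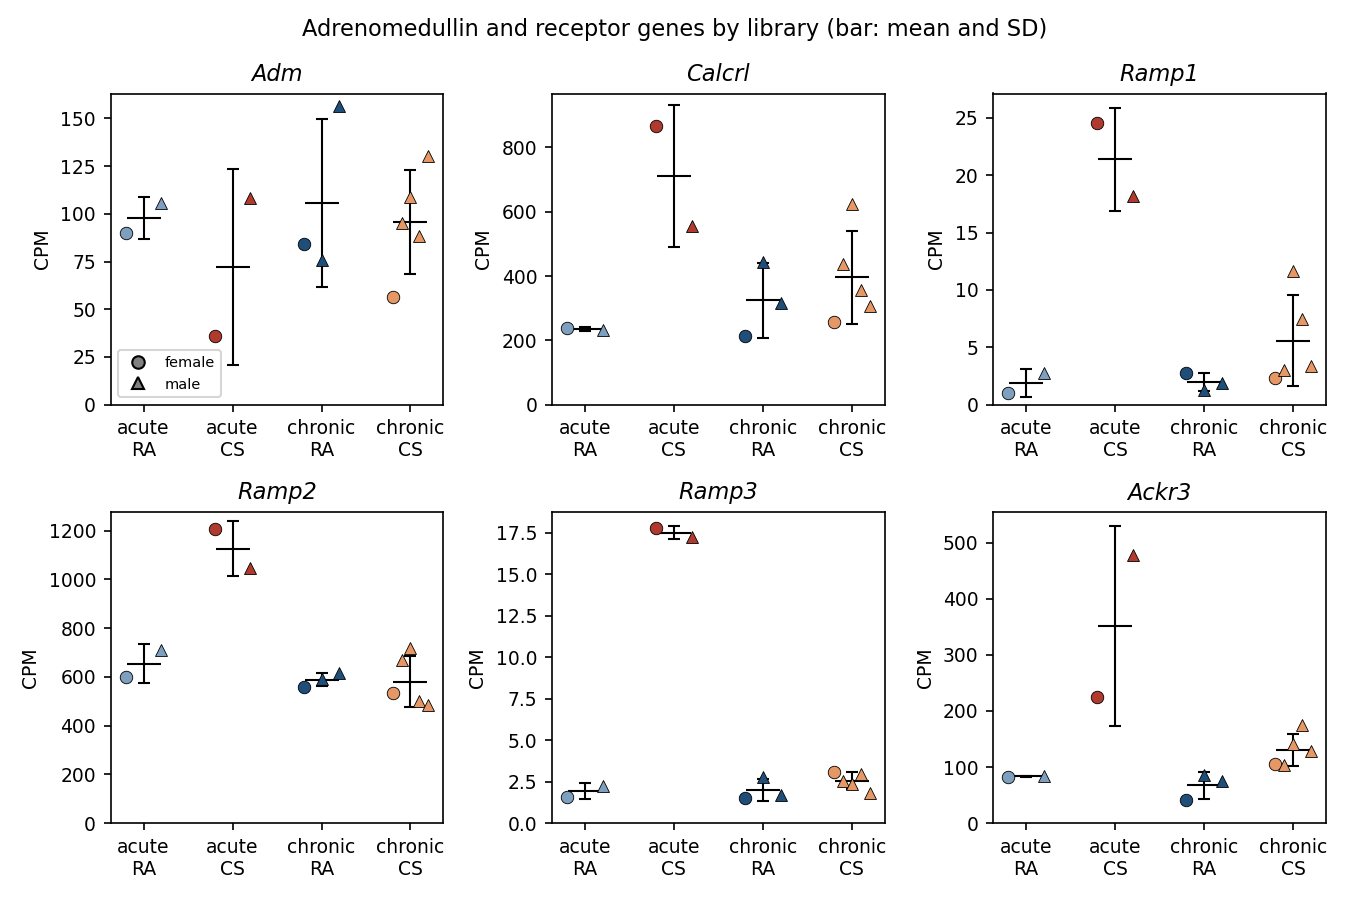
Level of each gene in CPM on a linear axis from 0, by group, with a circle for each female and a triangle for each male library and a black bar for the group mean and SD. Ramp1 and Ramp3 stay under 3 CPM in both RA groups and reach 17.2 to 24.6 CPM in acute CS, while the Adm groups overlap.

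For 5 of the 6 members the acute CS and acute RA libraries did not overlap, but with 2 libraries a group this was so for 50.1% of all tested genes. At an unadjusted p under 0.05 in edgeR, 5 of 6 members passed, against 15.7% of tested genes. An exact permutation test of a single gene cannot give a two-sided p below 0.333 at this size, so the acute calls rest on the spread pooled over genes and groups. Restricting the fit to the 4 acute libraries left 0 of 6 members and 139 of 19815 tested genes called in edgeR. Adjusted p-values in that edgeR fit were 0.0924 for Ramp1, 0.0544 for Ramp3 and 0.101 for Ackr3. Over all libraries DESeq2 called 5 of 6 members, and 1926 of all 21440 genes.

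After chronic CS, no member passed the test, and the 2 genes that stood highest relative to chronic RA were Ramp1 and Ackr3. Ramp1 was 2.83-fold and Ackr3 1.94-fold higher, whereas the log2 fold changes of Adm, Calcrl, Ramp2 and Ramp3 lay between -0.14 and 0.36. With edgeR, 0 of 6 members and 0 of all 21440 genes (0%) passed the adjusted threshold. At an unadjusted p under 0.05, 2 of 6 members and 10.9% of genes passed, and DESeq2 called 1 member, Ackr3, and 524 genes.

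Ackr3 was at 41.1, 86.1 and 74.4 CPM in F, M1 and M2 of chronic RA and at 106, 103, 140.2, 175 and 128 CPM in F, M1, M2, M3 and M4 of chronic CS. Every chronic CS library was above every chronic RA library, and Ackr3 was the only 1 of 6 members without overlap, against 9.41% of tested genes. The log2 fold change was 0.96 ± 0.29 (SE, edgeR unadjusted p = 0.00724, adjusted p = 0.330; DESeq2 adjusted p = 0.0270). An exact two-sided permutation test over the 8 libraries gave p = 0.0357, the smallest it can give.

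Ramp1 was at 2.79, 1.27 and 1.85 CPM in F, M1 and M2 of chronic RA and at 2.31, 2.99, 11.7, 7.48 and 3.37 CPM in F, M1, M2, M3 and M4 of chronic CS. Chronic CS F lay within the chronic RA range and M2 and M3 were well above it. The log2 fold change was 1.501 ± 0.60 (SE, edgeR unadjusted p = 0.0281, adjusted p = 0.410). M2 and M3 also had the highest summed leukocyte markers of the chronic libraries, 218 and 254 CPM against 70.7 to 155 CPM in the others, and the highest alveolar macrophage sums, 244 and 339 CPM against 17.6 to 117 CPM, and the part of these cells in the Ramp1 level was not tested.

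Calcrl ranged from 212 to 445 CPM in chronic RA and from 258 to 625.4 CPM in chronic CS, a log2 fold change of 0.29 ± 0.30 (SE, edgeR adjusted p = 0.759). Ramp2 was at 559, 592 and 615 CPM in F, M1 and M2 of chronic RA and 532, 668, 717, 503 and 484 CPM in F to M4 of chronic CS, and its log2 fold change was -0.02 ± 0.14 (SE, edgeR adjusted p = 0.975). Ramp3 remained low, at 1.54 to 2.76 CPM in chronic RA and 1.81 to 3.10 CPM in chronic CS, with a log2 fold change of 0.36 ± 0.32 (SE, edgeR adjusted p = 0.712). Adm was at 84.4, 76.0 and 156 CPM in F, M1 and M2 of chronic RA and 56.6, 95.0, 109, 88.5 and 130.4 CPM in F to M4 of chronic CS. The groups overlapped for these 4 genes, and the Adm difference was -0.14 ± 0.36 on the log2 scale (SE, edgeR adjusted p = 0.918).

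Marker sums were also set side by side in the chronic libraries. Blood endothelial markers summed to 3202 to 3336 CPM in chronic RA and 2540 to 3598 CPM in chronic CS, of which Plvap alone made up 2689 to 2785 CPM and 1704 to 2753 CPM. Of the 13 blood endothelial markers 11 had a positive difference, with a median log2 fold change of 0.82 against 0.01 over all tested genes. None of the 13 passed in edgeR, 5 had an unadjusted p under 0.05 (Vwf, Aplnr, Gja5 and Car4 as higher and Plvap as lower), where 10.9% of all tested genes did, and DESeq2 called 3. Vwf, with the lowest p of these, was at 51.0 to 61.4 CPM in chronic RA and 88.6 to 276 CPM in chronic CS (log2 fold change 1.38 ± 0.35, SE, edgeR adjusted p = 0.261). Lymphatic markers summed to 18528 to 21257 CPM and 13569 to 19947 CPM. Mesenchymal markers (46.6 to 60.4 CPM against 140 to 241 CPM) and epithelial markers (203 to 411 CPM against 1018 to 4257 CPM) were higher in every chronic CS library than in any chronic RA library, as Ackr3 was, and the part of blood endothelial, mesenchymal and epithelial cells in the Ackr3 difference was not tested. Of all 55 markers, edgeR called 0, with 24 at an unadjusted p under 0.05, where 10.9% of all tested genes were. DESeq2 called 10 of the 55, and 524 of all 21440 genes.

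**Figure D2:**
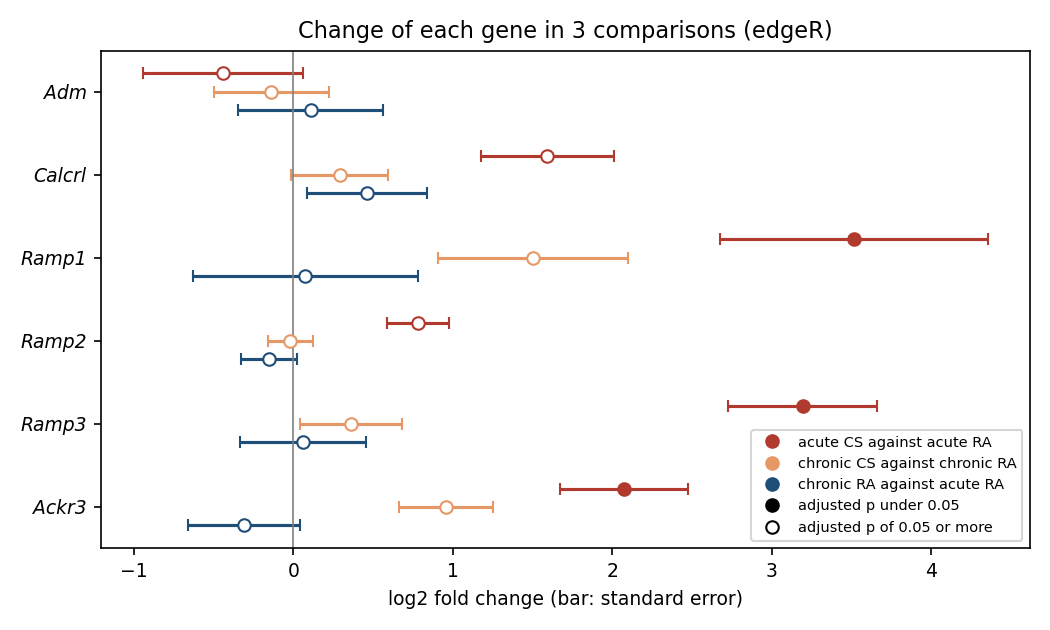
Log2 fold change of each gene with its standard error in acute CS against acute RA (red), chronic CS against chronic RA (orange) and chronic RA against acute RA (blue), filled where the edgeR adjusted p is under 0.05. Only Ramp1, Ramp3 and Ackr3 in the acute comparison are filled, and the differences between the 2 RA groups lie between -0.31 and 0.46.

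Whether the effect of smoke differed between the 2 time points was tested as the acute effect minus the chronic effect. The difference was largest for Ramp3, at 2.83 ± 0.54 on the log2 scale (SE), and just missed the threshold in edgeR (adjusted p = 0.0533), with DESeq2 giving 1.12e-05. For Ramp1 it was 2.01 ± 0.95 (adjusted p = 0.439), for Calcrl 1.30 ± 0.51 (adjusted p = 0.335), for Ackr3 1.12 ± 0.48 (adjusted p = 0.385) and for Ramp2 0.80 ± 0.24 (adjusted p = 0.188). Adm differed by -0.30 ± 0.62 (adjusted p = 0.923). So 0 of 6 members passed in edgeR against 0.452% of tested genes, and 4 of 6 had an unadjusted p under 0.05 against 11.9%. DESeq2 called 1 member, Ramp3, and 916 of all 21440 genes.

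Without smoke, no difference of a member between the 2 time points was detected. With 2 and 3 libraries an exact two-sided permutation test cannot give a p below 0.2, so the absence of calls does not show equal levels. Comparing chronic RA with acute RA, 0 of 6 passed in edgeR (0% of tested genes), 0 of 6 had an unadjusted p under 0.05 (7.01% of tested genes), 0 passed with DESeq2, and in 0 of 6 did the groups fail to overlap (34.7% of tested genes). The widest difference was that of Calcrl, 0.46 ± 0.38 on the log2 scale (SE, edgeR adjusted p = 0.843), from 235.6 ± 5.59 CPM (SD, n = 2) in acute RA to 324 ± 116 CPM (SD, n = 3) in chronic RA. With a replicate block in the fit the Calcrl difference turned to -0.40. Log2 differences of the other members ran from -0.31 for Ackr3 to 0.11 for Adm. With library sizes alone in place of TMM factors, the median of all genes in this comparison shifted from 0 to -0.10, and the differences of Adm, Ramp1 and Ramp3 turned to -0.0015, -0.02 and -0.05.

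Ordered by group mean, 5 of the 6 genes were highest in acute CS, and Adm was lowest there. For Ramp1 and Ramp3 the order was acute CS, chronic CS, chronic RA and acute RA, with acute CS separated from chronic CS and the other neighbours overlapping. For Ramp2 acute CS was separated from acute RA, and acute RA, chronic RA and chronic CS overlapped in turn. Ackr3 was the gene with 2 separated steps, acute CS above chronic CS and chronic CS above acute RA, and its 2 RA groups overlapped. Neighbouring groups overlapped throughout for Calcrl, ordered as for Ramp1, and for Adm, ordered chronic RA, acute RA, chronic CS and acute CS.

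Levels of different genes were compared per length, as FPKM over the summed exons of each gene. Ramp2 was the most abundant member in every group, with mean FPKM values of 176 to 341, followed in acute RA by Adm at 60.5, Calcrl at 48.3 and Ackr3 at 24.9 FPKM. Ramp3 (1.38 FPKM) and Ramp1 (0.618 FPKM) were the least abundant there. In acute CS the next places were taken by Calcrl at 146 ± 45.2 FPKM and Ackr3 at 105 ± 53.3 FPKM (SD, n = 2), ahead of Adm at 44.6 ± 31.7 FPKM.

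The balance between the RAMPs was expressed as the share of each in their summed FPKM. In acute RA, Ramp2 made up 99.2% in F and 98.8% in M, and in acute CS 94.6% in F and 94.5% in M. Ramp2 was therefore the main partner transcript in all 12 libraries, and the 2 minor partners together took a larger share in acute CS. The Ramp3 share went from 0.624% and 0.749% in acute RA to 3.34% and 3.72% in acute CS, and the Ramp1 share from 0.184% and 0.414% to 2.10% and 1.80%. The acute groups did not overlap for any of the 3 shares, and the exact two-sided permutation test gave the smallest p it can, 0.333 (adjusted p = 0.500 over 9 tests). In chronic RA the Ramp2 share was 98.8%, 98.7% and 99.0% in F, M1 and M2, and in chronic CS 98.2%, 98.6%, 97.5%, 97.1% and 98.4% in F to M4. The chronic difference of -0.896 percentage points did not overlap either (exact permutation p = 0.0357, adjusted p = 0.321). The Ramp1 and Ramp3 shares of the chronic groups overlapped, at differences of 0.637 (exact permutation p = 0.107, adjusted p = 0.482) and 0.259 percentage points (exact permutation p = 0.286, adjusted p = 0.500). The exon length of Ramp2 (3301 bases) includes a transcript that reads through into Vps25, and with the length of the principal transcript of each gene (1178 bases for Ramp2), an alternative chosen after seeing the data, the acute difference of the Ramp2 share was -1.98 in place of -4.50 percentage points and the chronic one -0.407. With these lengths the Ramp3 share was 1.38% and 1.54% in F and M of acute CS and 0.250% and 0.301% in F and M of acute RA, and the Ramp1 share was 1.01% and 0.862% against 0.0857% and 0.193%.

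**Figure D3:**
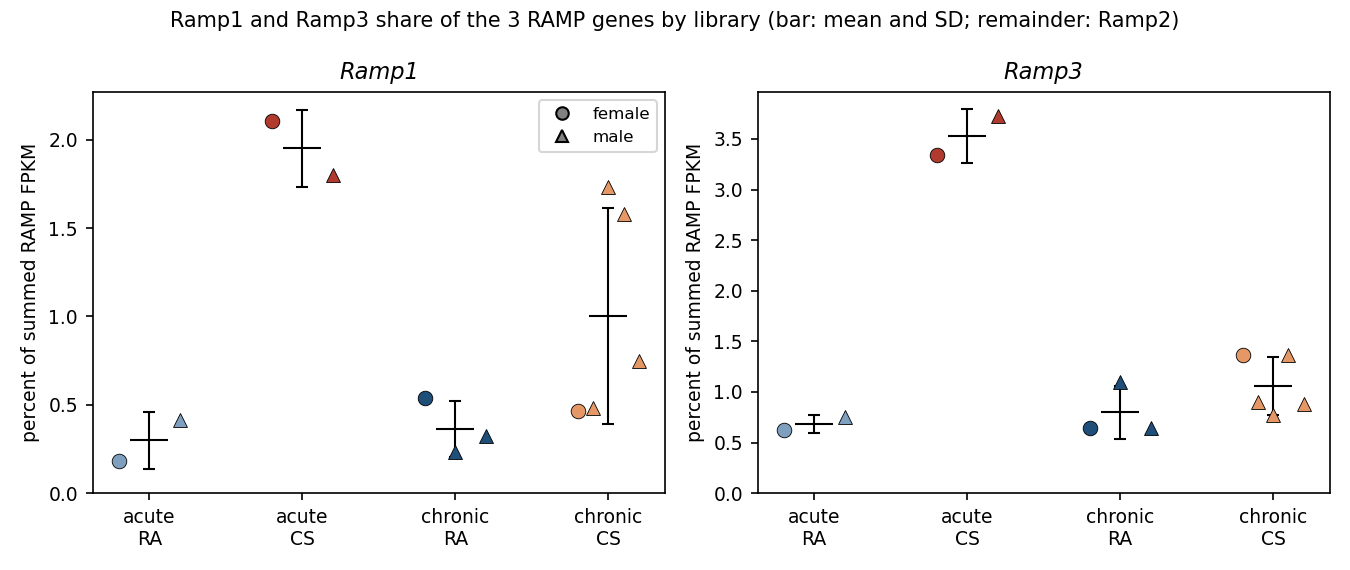
Share of Ramp1 (left) and Ramp3 (right) in the summed FPKM of the 3 RAMP genes, in percent on linear axes from 0, by group, with circles for female and triangles for male libraries and bars for group mean and SD. Ramp2 is the rest, and lengths are those of all exons of a gene, which for Ramp2 include the read-through transcript. The Ramp3 share is 3.34% and 3.72% in acute CS and at most 1.37% elsewhere.

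The ratio of Ramp2 to Calcrl transcripts compares the partner with its receptor within a library. On the log2 scale it was 1.88 in F and 2.18 in M of acute RA, and 1.04 in F and 1.48 in M of acute CS. The level of this ratio depends on the length used for Ramp2, and with principal transcript lengths it was 3.37 and 3.67 in acute RA and 2.53 and 2.97 in acute CS, while differences between groups are the same with either length. The acute groups did not overlap, with a mean difference of -0.77 (exact permutation p = 0.333, adjusted p = 0.400). In the chronic groups the ratio ranged from 0.977 to 1.96 in RA and from 0.763 to 1.61 in CS and overlapped (difference -0.32, exact permutation p = 0.321, adjusted p = 0.400). Ramp2 FPKM exceeded Calcrl FPKM in all 12 libraries, and the ratio was lowest in chronic CS M2, the library with the highest Calcrl level of the chronic groups.

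Sex was tested within groups, since each held at least 1 female and 1 male library. All 6 members had lower fitted levels in females, and 0 of 6 passed in edgeR (0.00466% of tested genes) or DESeq2. Adm differed by -0.78 ± 0.25 on the log2 scale (SE, edgeR unadjusted p = 0.00975, adjusted p = 0.9999) and was lower in the female library than in every male library of acute RA, acute CS and chronic CS, but not of chronic RA. Ackr3 differed by -0.59 ± 0.19 (SE, edgeR unadjusted p = 0.0103, adjusted p = 0.9999), with the female library lowest in acute RA, acute CS and chronic RA. These 2 of 6 members had an unadjusted p under 0.05, against 2.66% of tested genes. The other 4 lay between -0.33 for Ramp1 and -0.09 for Ramp2, and the signs of Ramp1 and Ramp3 turned when single libraries were left out.

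The lists of other genes of the pathway held 60 genes, of which 55 were tested. In acute CS against acute RA, 6 of 55 rose and 0 fell in edgeR, where 2.75% of all tested genes passed as higher and 3.47% in either direction, and DESeq2 called 13, and 1926 of all 21440 genes. After chronic CS, edgeR called 0 of 55, with 6 at an unadjusted p under 0.05 (10.9% of all tested genes). DESeq2 called 1 of the 55, and 524 of all 21440 genes.

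Other ligands were nearly absent. Adm2, Calca and Calcb, which encode intermedin and the 2 calcitonin gene-related peptides, did not exceed 1.80 CPM in any library, Iapp had 0 counts in all 12, and the calcitonin receptor gene Calcr had 0 counts in 10 of 12. Calca was at 0 in the 3 chronic RA libraries and at 0 to 1.80 CPM in chronic CS (edgeR adjusted p = 0.401). Crcp, the receptor component gene that couples CGRP receptors, was at 21.1 to 36.4 CPM over the 12 libraries. The receptors other than Calcrl that can pair with RAMPs were also low, 0 of 5 tested passing in either smoke comparison in edgeR, with 1 (Pth1r, 4.37 ± 1.26 on the log2 scale in acute CS, SE, adjusted p = 0.0935) at an unadjusted p under 0.05 and 1 called by DESeq2 in acute CS. Pth1r, the parathyroid hormone receptor, was at 0 to 0.253 CPM in acute RA and 2.43 to 3.003 CPM in acute CS.

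Among the genes that mature, bind or degrade the peptide, 0 of 5 passed in either smoke comparison in edgeR or DESeq2, with 0 and 1 at an unadjusted p under 0.05. Pam, the amidating enzyme that adrenomedullin needs for activity, was at 76.5 and 359 CPM in the 2 acute RA libraries and 345 to 426 CPM in acute CS (log2 fold change 0.82 ± 0.80, SE, edgeR adjusted p = 0.738). Furin, a proprotein convertase, was 0.55 lower on the log2 scale in chronic CS (edgeR log2 fold change -0.55, adjusted p = 0.453).

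Downstream of the receptor, 3 of 19 cAMP genes rose in acute CS and 0 fell, where 2.75% of all tested genes passed as higher. A further measure, an unadjusted p under 0.05, was met by 10 of the 19 and by 15.7% of all tested genes, and the median log2 fold change was 0.27 against 0.04 over all tested genes. Prkar2b, a regulatory subunit of protein kinase A, rose from 2.92 and 7.04 CPM to 34.6 and 37.3 CPM (log2 fold change 2.85 ± 0.36, SE, edgeR adjusted p = 0.00400). The cAMP-activated Rap exchange factors also rose, Rapgef3 from 12.4 and 20.9 CPM to 62.9 and 120 CPM (2.46 ± 0.57, adjusted p = 0.0379) and Rapgef4 from 0.760 and 0.795 CPM to 6.62 and 22.3 CPM (4.21 ± 1.01, adjusted p = 0.0460). In the chronic comparison none of the 19 passed in edgeR, 2 had an unadjusted p under 0.05 and 1 passed with DESeq2. The difference between the acute and chronic effects passed for Prkar2b, at 2.52 on the log2 scale (edgeR adjusted p = 0.0406). Of 5 desensitization genes, the receptor kinases and arrestins, 0 passed in either comparison in edgeR or DESeq2, with 1 at an unadjusted p under 0.05 in acute and 2 in chronic CS. Grk5, a receptor kinase, was the acute one (-0.53 ± 0.24 on the log2 scale, SE, adjusted p = 0.317), and Arrb2, a beta-arrestin, was one of the chronic ones (-0.41 ± 0.14, SE, adjusted p = 0.356).

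The chemokine partners of Ackr3 changed in the same acute comparison. Cxcl12, the chemokine that ACKR3 scavenges, was at 66.9 and 79.9 CPM in acute RA and 158 and 381 CPM in acute CS (log2 fold change 1.88 ± 0.34, SE, edgeR adjusted p = 0.0143). Cxcr4, the signalling receptor for CXCL12 that is also expressed by leukocytes, was at 0.643 and 0.980 CPM in acute RA and 12.5 and 22.4 CPM in acute CS (4.42 ± 0.81, adjusted p = 0.0140). Both tested genes of this list therefore passed, where 2.75% of all tested genes passed as higher and 3.47% in either direction. Cxcl11 had 0 counts in 11 of 12 libraries. In chronic CS neither passed in edgeR or DESeq2, with log2 fold changes of 0.19 ± 0.24 for Cxcl12 and 0.17 ± 0.52 for Cxcr4, while Ackr3 was at 0.96 in the same comparison.

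Adm is a known target of hypoxia-inducible factors, and of 15 hypoxia factors and targets 1 rose and 0 fell in acute CS, where 2.75% of all tested genes passed as higher, and 4 of 15 had an unadjusted p under 0.05 against 15.7% of all tested genes. Epas1, which encodes HIF-2 alpha and is abundant in endothelium, rose from 95.3 and 124 CPM to 464 and 998 CPM (log2 fold change 2.74 ± 0.39, SE, edgeR adjusted p = 0.00570). Vegfa, a target, was at 134 and 444 CPM in acute CS against 98.7 and 103 CPM in acute RA (1.52 ± 0.42, adjusted p = 0.0770). Hif1a, the other oxygen-regulated subunit, had log2 fold changes of 0.02 ± 0.31 in acute and -0.01 ± 0.23 in chronic CS (SE). None of the 15 passed after chronic CS in edgeR or DESeq2, and 0 had an unadjusted p under 0.05.

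**Figure D4:**
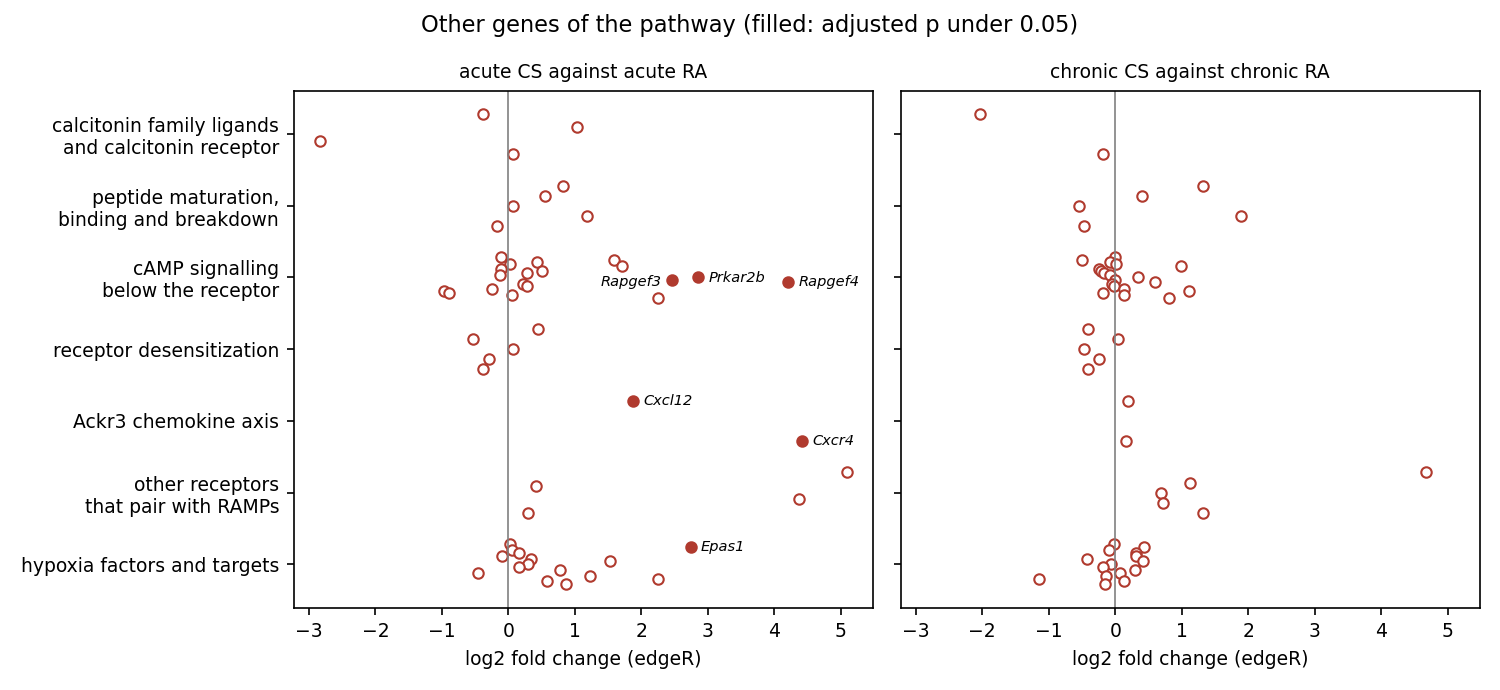
Log2 fold change of the tested genes of each pathway list in acute CS against acute RA (left) and chronic CS against chronic RA (right), filled and named where the edgeR adjusted p is under 0.05, leaving out Gcgr (left) and Calca and Calcb (right), which were at 0 in a whole group. The 6 filled points are all in the acute comparison and to the right of 0.

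Genes were also ranked by how closely their log2 CPM followed each member over the 12 libraries, among the 12429 genes that averaged 1 or more in log2 CPM. These correlations describe 12 libraries that share the same groups, depths and cell content, and r with group means subtracted is given second. For Adm they were Hnrnpc (r = 0.90, 0.88), Rab11b (0.87, 0.85) and Anxa7 (0.87, 0.88). For Calcrl they were Gadd45b (0.94, 0.88), Zc3h12a (0.92, 0.84) and Dcbld1 (0.92, 0.81). The list for Ramp1 was Apbb1ip (0.98, 0.92), Pygl (0.96, 0.88) and Ifi30 (0.95, 0.87), and that for Ramp2 was Icam2 (0.96, 0.90), Klhdc4 (0.95, 0.72) and Adam15 (0.94, 0.70). For Ackr3 they were Nos3 (0.96, 0.83), Ptgs1 (0.95, 0.69) and Cited2 (0.94, 0.71). Ramp3 was followed by Icosl (0.97, 0.61), Txn1 (0.96, 0.23) and Tagln2 (0.95, 0.0038), so that for Txn1 and Tagln2 little of the likeness was left within groups. Among the members, Calcrl and Ramp2 were the pair whose r was nearly as high within groups (0.72) as over all libraries (0.73), while Ramp2 and Ramp3 went from 0.85 to 0.18. Adm had negative r with each of the other 5, from -0.16 with Ackr3 to -0.52 with Ramp3, and within groups r was -0.45 with Ramp3, -0.07 with Calcrl, -0.03 with Ramp2, 0.16 with Ramp1 and 0.56 with Ackr3.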

How the data were processed

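Counts per gene were deposited for 12 libraries of sorted lung LECs. Per the labels and the study's methods, the authors prepared libraries with SMART-Seq v4, checked reads with FastQC 0.11.9, trimmed them with Skewer, filtered them with Minion and counted reads per gene with STAR on GRCm38/mm10; strand setting and annotation release were not given in the sources used here. Symbols came from GENCODE M21, and 147 of 52636 identifiers, at most 0.011% of a library's counts, had none.

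Counts were fitted over all 12 libraries by group with edgeR 4.0.16 (R 4.3.3; TMM factors, filterByExpr, quasi-likelihood test, Benjamini-Hochberg over 21440 genes, threshold 0.05), adding sex for the sex comparison. SEs were taken from the F statistics. RAMP shares and ratios were compared by exact two-sided permutation tests. No pair of libraries within a group agreed within sampling noise. Alternatives included DESeq2 1.42.0, other scaling and filters, and leaving out each library. The fits were tested on simulated data. p-values measure the spread between these libraries. The genes, lists and naming rules were chosen with earlier results of these data known: the 6 members, up to 4 passing genes of each list by p (otherwise up to 2), and the 3 most correlated genes per member. Promoters came from RefSeq (GRCm38.p6).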

Additional observations from a re-analysis of the deposited data

How the results depend on the processing

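Genes called in acute CS against acute RA numbered 745, and 1926 with DESeq2, 139 with only the groups compared, 73 with a replicate block and 3 to 858 on leaving out 1 library (3 without acute RA M, 79 without acute RA F, 175 without acute CS F). Members called numbered 3, and 5 with DESeq2, 5 without the filter on low counts, 0 with only the groups compared, 0 with the replicate block and 0 to 2 on leaving out 1 library. In that block Ramp1, Ramp3 and Ackr3 had adjusted p-values of 0.145, 0.0766 and 0.0790. In the chronic groups, libraries with the same label (F, M1 or M2) did not deviate together (r from -0.0582 to 0.0339), so labels were not taken to pair libraries. With 2 libraries in each acute group, deviations from the group mean mirror each other. The acute r (0.0680 for the same label, -0.0680 otherwise) therefore cannot decide on pairing. After chronic CS, 0 genes were called, and 524 with DESeq2, 10 without the filter, 1 with chronic CS F, M1 and M2 only, 16 with M3 and M4 only and 0 to 4 on leaving out 1 library (4 without chronic CS F); DESeq2 called 1 member. For chronic RA against acute RA it was 0 genes, and 253 with DESeq2, 6 without the filter and 42 with only the groups compared. For the acute minus the chronic effect it was 97 genes, and 916 with DESeq2 (1 member), 191 without the filter, 21 with sex as covariate, 0 with the replicate block and 0 to 263 on leaving out 1 library (0 without acute RA F, acute RA M or chronic RA M2, 1 without chronic RA F, 2 without acute CS F, 8 without chronic RA M1 or chronic CS M4, 29 without chronic CS F, 46 without chronic CS M1 and 263 without acute CS M). For sex it was 1 gene, and 26 with DESeq2, 0 with chronic CS M3 and M4 only and 0 to 5 on leaving out 1 library. With library sizes alone, 74.7% of the calls for acute minus chronic effect were higher in place of 88.7%, and with DESeq2 74.2%.

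Directions turned for the following log2 differences. Chronic Adm was 0.0509 with chronic CS M3 and M4 only. Chronic Ramp2 was 0.0165 with DESeq2, 0.0741 with library sizes alone, 0.11 with the replicate block and 0.13 with chronic CS F, M1 and M2 only, and -0.26 with M3 and M4 only (edgeR adjusted p = 0.639 and 0.431). In this split of chronic CS, F, M1 and M2 held 18821438 to 22885446 counts with 0.553% to 0.777% mitochondrial, and M3 and M4 held 45436986 to 47494020 counts with 0.312% to 0.328%. In chronic RA against acute RA, library sizes alone gave Adm -0.0015, Ramp1 -0.0217 and Ramp3 -0.0471, sex as covariate gave Adm -0.0511 and the replicate block gave Calcrl -0.40. For sex, Ramp1 was 0.0899 with chronic CS M3 and M4 only. On leaving out 1 library the log2 ranges that crossed 0 were -1.45 to 0.15 (acute Adm), -0.32 to 0.27 (chronic Adm), -0.11 to 0.0394 (chronic Ramp2), -1.31 to 0.29 (acute minus chronic effect, Adm), -0.30 to 0.29, -0.47 to 0.94 and -0.26 to 0.32 (Adm, Ramp1 and Ramp3 between RA groups) and -0.90 to 0.0919 and -0.35 to 0.0452 (Ramp1 and Ramp3 by sex), and in percentage points -0.0494 to 0.181 and -0.0411 to 0.189 (Ramp1 and Ramp3 shares between RA groups). The cause was not tested. When 1 library of an acute group was left, it was assumed to vary like the other groups. The smallest count of any member in any library was 44, for Ramp1.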
